A study of Sus scrofa with 36 samples.

Results

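The comparison described here set 6 Large White (LW) pigs against 6 Creole (CR) pigs, all at a labelled temperature of 24 °C. The 12 pigs were taken by the breed and temperature in their sample titles out of 36 pigs, and every probe of the deposited table of log2 values was kept. The whole series covers the thyroid glands of 3 breeds (LW, CR and a cross of both called F1) at 24 and 30 °C, with 6 castrated male pigs in each of the 6 groups and 1 array a pig. Large White is a selected white-coated commercial breed and Creole a local Caribbean breed with coloured coats, and all pigs were growing animals raised at a single station in Guadeloupe on the same diet. The LW and CR pigs compared were both at thermoneutrality and were slaughtered before any heat exposure. The labels call the hot groups 30 °C, while the protocol text gives 32 °C. The study placed littermates of each breed in different groups and housed pigs in pens of a single breed. The 6 pigs of a breed thus come from a few families and pens. A breed effect cannot be told apart from an effect of those families or pens. The labels name neither pen nor litter, age or slaughter day, and none of these was used. The whole gland was taken, so each value is a mean over follicular cells, C cells, vessels, connective tissue, fat and blood cells.

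The thyroid is built of follicles, closed sacs of epithelial cells around a store of thyroglobulin. These cells take up iodide through the symporter SLC5A5, add it to thyroglobulin (TG) with hydrogen peroxide made by the DUOX enzymes, and release hormone after digestion of TG, all under the control of the TSH receptor. Making so much of a secreted protein loads the endoplasmic reticulum, whose chaperones are counted among the genes of the unfolded protein response. The hormones that leave the gland set the pace of lipid synthesis, heat production and growth in other tissues, and pig breeds selected for lean growth are known to differ from local breeds in fatness.

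The arrays of the 12 pigs were alike in quality. Between 72.8% and 79.8% of the spots of an array were well above background, the median intensity lay between 136.5 and 168.5 units against 25 to 27.5 units for the negative controls, and 0 spots were saturated. Pairs of pigs of the same breed correlated at 0.987 to 0.995 over all probes and pairs of different breeds at 0.985 to 0.991, and the median SD of the difference between 2 arrays was 0.350 within a breed and 0.405 between breeds on the log2 scale. The 12 arrays lay on 5 slides, of which 4 held pigs of both breeds and the fifth held LW pigs only. Precision depends on how many arrays there are and on the spread among pigs, since intensities carry no count of reads.

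Between LW and CR pigs at 24 °C, 1580 of 46097 probes differed at an adjusted p under 0.05 (limma, 2-sided, Benjamini-Hochberg over all probes; such a probe is named called below), which is 3.43% of those tested. They were split almost evenly, with 787 probes (1.71%) higher and 793 probes (1.72%) lower in LW. The difference was at least 1 on the log2 scale, a doubling or a halving, for 101 of the higher and 153 of the lower probes. The median size was 0.521 among the called probes and 0.0969 among all probes. An unadjusted p under 0.05 (limma) was reached by 7811 of the 46097 probes. Counts of the gene lists below at that threshold can be read beside this share. On the 4 slides that held both breeds the LW minus CR difference had the sign of the fit on every slide for 1476 of the 1580 called probes (93.4%). This was the case for 27.9% of all probes. The calls were made on these same arrays, so a higher share among called probes follows from their selection and is no separate check. The lowest LW pig lay above the highest CR pig, or the reverse, for 1136 probes (2.46%), and 716 of these were called.

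Each gene was then read by 1 probe, the one with the highest mean signal over the 36 arrays. Of 11419 genes, 398 (3.49%) were called, 203 (1.78%) higher and 195 (1.71%) lower in LW, and the difference reached 1 on the log2 scale in 62 of them. The 6 LW and the 6 CR values did not overlap for 286 genes (2.5%). The median difference over all genes was 0.00022, with a 5th percentile of -0.318 and a 95th percentile of 0.32, and these are the values against which the gene lists below can be read. A further 738 called probes had no gene name and are counted only. In what follows, values are log2 intensities, 3 values in a row are the lowest, the median and the highest of the 6 pigs of a breed, and a difference is LW minus CR ± the standard error of the fit.

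**Figure D1:**
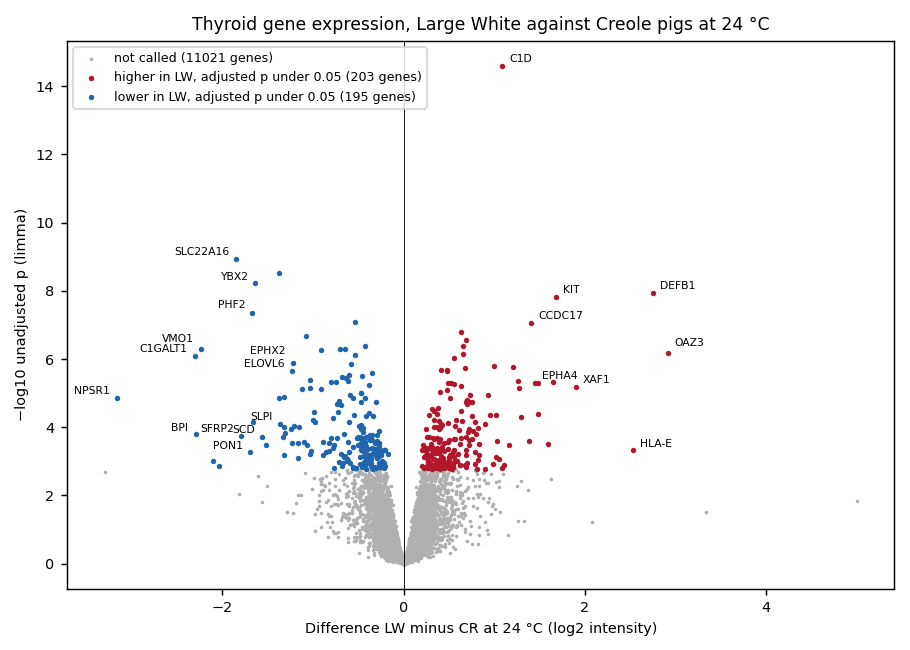
Each point is a gene read by its brightest probe, with the LW minus CR difference at 24 °C on the x axis (log2 intensity) and −log10 of the unadjusted limma p on the y axis. Red points are the 203 genes called higher and blue points the 195 called lower in LW, and the labelled genes at the flanks, OAZ3 and DEFB1 on the right and NPSR1 and C1GALT1 on the left, are described in the text.

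None of the genes that make thyroid hormone was called between the breeds by its brightest probe. Thyroglobulin, the hormone precursor and the brightest of them, stood at 18.32, 18.92 and 19.02 in LW and 18.30, 18.79 and 19.09 in CR pigs, and its difference was 0.07 ± 0.15 (adjusted p = 0.88). None of its 10 probes was called. The iodide symporter SLC5A5 ranged over 15.84, 17.01 and 17.55 in LW and 15.27, 16.73 and 17.30 in CR pigs, a spread among pigs of a breed larger than the difference of 0.25 ± 0.36 (adjusted p = 0.81). DUOX2, which makes the hydrogen peroxide, differed by -0.01 ± 0.10, and IYD, which recovers iodide from unused iodotyrosines, by 0.02 ± 0.40. DIO2, the deiodinase that activates the hormone, differed by 0.02 ± 0.43 and the TSH receptor TSHR by 0.02 ± 0.15, with adjusted p values of 0.993 and 0.979. The values of TG, SLC5A5, DUOX2, IYD, DIO2 and TSHR overlapped between the breeds. DIO1 was not analysed here.

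Of 20 tested genes of thyroid hormone synthesis 0 were called, with a median difference of 0.003 beside 0.00022 for all genes, and at an unadjusted p under 0.05 there was 1. That gene was PDIA4, a disulphide isomerase of the endoplasmic reticulum, at 13.19, 13.39 and 13.71 in LW and 13.69, 13.80 and 14.26 in CR pigs (difference -0.44 ± 0.15, adjusted p = 0.0928). Among 20 genes of the TSH receptor and cAMP pathway 0 were called by limma, 3 had an unadjusted p under 0.05 and the median difference was 0.01. The lowest p there belonged to PRKAR1A, the regulatory subunit of protein kinase A, at 0.21 ± 0.08 (adjusted p = 0.177). The transcription factors of the follicular cell leaned to the LW side without a call by the brightest probe. PAX8 differed by 0.29 ± 0.14 (adjusted p = 0.273), FOXE1 by 0.09 ± 0.12 and NKX2-1 by 0.14 ± 0.08, although the dimmer of the 2 NKX2-1 probes was called at 0.34 (adjusted p = 0.0476).

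A single gene among the 18 markers of follicular cells was called by its brightest probe, CDH16, a cadherin of thyroid and kidney epithelium. It stood at 13.96, 14.58 and 14.97 in LW and 14.95, 15.17 and 15.43 in CR pigs and was lower in LW by 1.56-fold (difference -0.64 ± 0.12, adjusted p = 0.00131). The highest LW pig lay just above the lowest CR pig, and the other pigs were separated. The list as a whole leaned the other way, with 13 of the 18 markers higher in LW and a median of 0.081. At an unadjusted p under 0.05 (limma) there were 6 markers, and dimmer probes of NKX2-1, CLDN3 and CLDN4 were called. Read as the mean of all probes of a gene, 3 of the 18 were called. The mean of the 18 markers ranged from 12.15 to 12.29 in LW and from 11.99 to 12.22 in CR pigs. C cells, which make calcitonin, had 0 called of 12 markers (limma) and 0 at an unadjusted p under 0.05. Their mean spanned 9.24 to 10.20 in LW and 8.59 to 10.87 in CR pigs. Of the 18 follicular markers 17 were well above background on all 12 arrays. In samples of the whole gland fewer cells of a type and less RNA per cell cannot be told apart, which holds for every marker list below.

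The largest difference among the called genes higher in LW belonged to OAZ3, an ornithine decarboxylase antizyme that restrains polyamine synthesis and is known mainly from the testis. Its values were 9.90, 10.64 and 11.24 in LW and 7.43, 7.63 and 8.08 in CR pigs, a difference of 2.91 ± 0.48 or 7.53-fold (adjusted p = 0.000521). The breeds did not overlap. The array carries 3 probes for OAZ3, and they are shown because 2 of them are the same 60 letters printed under different names while probe 3 reads another stretch of the transcript. Probes are numbered by brightness, and lower case marks a sequence shown with no part singled out.
OAZ3 probes 1 and 2: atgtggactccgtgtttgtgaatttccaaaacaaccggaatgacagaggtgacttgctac
OAZ3 probe 3: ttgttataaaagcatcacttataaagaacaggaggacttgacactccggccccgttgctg
The identical probes gave differences of 2.91 and 2.91 and the other stretch gave 2.06, all of them called. Across the array 2110 pairs of probes have identical sequences, and their LW minus CR differences lay apart by a median of 0.0319 and by 0.139 at the 95th percentile. That gap is the error of reading the same letters at another place on the array.

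KIT, the receptor of stem cell factor and a gene of pigment cells, mast cells and blood progenitors, was the brightest of the 12 called genes with the largest differences to the LW side. It reached 12.76, 13.22 and 13.88 in LW and 11.03, 11.56 and 12.19 in CR pigs without overlap. The difference was 1.68 ± 0.23, or 3.2-fold (adjusted p = 3.67e-05). All 4 KIT probes were called, at 1.52 to 1.68. Probes 3 and 4 are shown with the 57 bases that they share in capitals, because they are nearly the same reading of the transcript, shifted by a few letters.
KIT probe 3: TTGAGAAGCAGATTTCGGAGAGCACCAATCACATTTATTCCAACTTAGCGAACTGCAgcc
KIT probe 4: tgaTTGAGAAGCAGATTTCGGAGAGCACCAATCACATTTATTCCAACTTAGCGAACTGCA
Their differences of 1.57 and 1.52 and their mean levels of 9.35 and 9.13 in LW pigs were close to each other, while probes 1 and 2 read other stretches at a higher signal with differences of 1.68 and 1.68.

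DEFB1, a beta-defensin made by epithelia, came next among the called genes higher in LW, with a difference of 2.75 ± 0.37 or 6.73-fold (adjusted p = 2.93e-05). It stood at 8.97, 10.41 and 12.11 in LW and 7.14, 7.73 and 7.92 in CR pigs, so the LW pigs spread over more than 3 log2 units while the CR pigs were close together. A probe named HLA-E, after a human class I histocompatibility gene, differed by 2.53 ± 0.65 (adjusted p = 0.0243) with 9.83, 11.13 and 11.53 in LW and 7.57, 8.04 and 9.87 in CR pigs. There 1 CR pig, at 9.87, lay among the LW pigs. Class I genes are a family of near-identical copies, and which of them this probe reads was not tested. XAF1, an interferon-inducible partner of the apoptosis inhibitor XIAP, differed by 1.90 ± 0.36 (adjusted p = 0.00169), with 9.67, 10.42 and 10.53 in LW against 7.51, 8.23 and 9.60 in CR pigs and no overlap.

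CLDN12, a claudin of tight junctions, was called on its 3 probes at 1.60 to 1.71. Its brightest probe read 10.14, 10.55 and 10.99 in LW and 8.53, 8.70 and 10.14 in CR pigs, and 1 CR pig, at 10.14, lay level with the lowest LW pig. EPHA4, an ephrin receptor of cell contacts, was called on all 4 probes at 0.82 to 1.45, with 10.76, 11.73 and 12.07 in LW against 9.72, 10.18 and 10.35 in CR pigs and no overlap (adjusted p = 0.00146). SDS, the serine dehydratase that feeds amino acid carbon into glucose synthesis, was called on all 3 probes at 1.22 to 1.49 (adjusted p = 0.00146 for the brightest). The remaining genes of these 12 were CAPSL, a calcium-binding protein, at 1.60 ± 0.40, the coiled-coil protein CCDC17 at 1.41 ± 0.21, the pseudokinase SGK223 at 1.38 ± 0.34 and DCPS, the scavenger that removes messenger caps, at 1.48 ± 0.31. The breeds did not overlap for CCDC17 and DCPS and overlapped for CAPSL and SGK223. The second DCPS probe did not follow, at -0.05 (adjusted p = 0.894).

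Among the genes read by their brightest probe the smallest p belonged to C1D, a cofactor of the nuclear RNA exosome, which was chosen after its values were seen. It read 10.55, 10.69 and 10.75 in LW and 9.52, 9.59 and 9.65 in CR pigs, so the pigs of a breed lay close together and the breeds stood 1.09 ± 0.08 apart (adjusted p = 5.74e-11). Its second probe, at a lower signal, differed by 0.04 (adjusted p = 0.873). At 30 °C the brighter probe gave a difference of 1.00 in the other 12 pigs of these breeds.

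**Figure D2:**
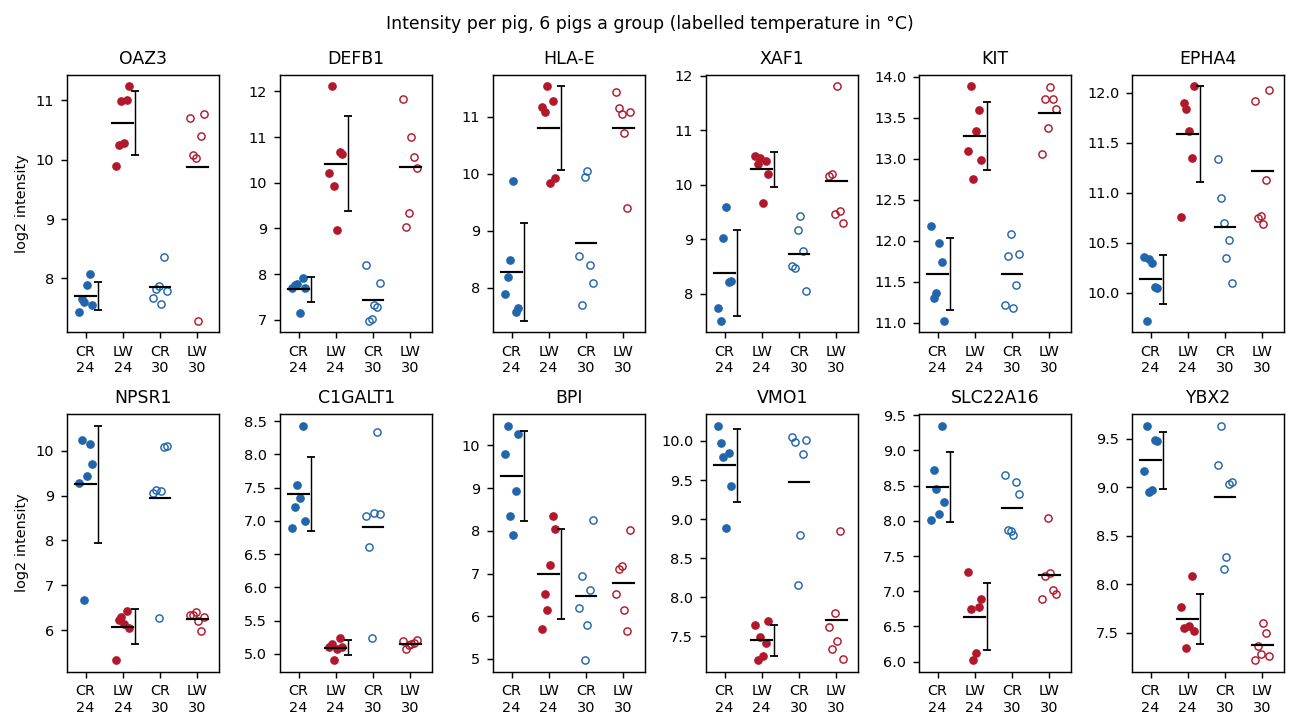
Each point is the log2 intensity of 1 pig (y axis) for 12 genes, with CR pigs in blue and LW pigs in red, filled at 24 °C and open at 30 °C. Horizontal lines are group means over 6 pigs and the bars at 24 °C are 1 SD. The upper 6 genes are higher and the lower 6 lower in LW pigs at 24 °C, and BPI is the panel in which the 30 °C pigs of both breeds lie at the same low level.

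Among the called genes lower in LW, NPSR1, the receptor of neuropeptide S, had the largest difference, -3.16 ± 0.62 or 8.96-fold (adjusted p = 0.00277), with 5.34, 6.19 and 6.43 in LW and 6.68, 9.57 and 10.23 in CR pigs. Of the CR pigs 1 lay at 6.68, far below the other CR pigs and just above the highest LW pig. C1GALT1, the Golgi enzyme that extends O-linked sugar chains, read 4.91, 5.10 and 5.24 in LW and 6.89, 7.27 and 8.43 in CR pigs (adjusted p = 0.000576). It was well above background on 0 of 6 LW and 6 of 6 CR arrays, so the LW level is a limit, and expression was at least 4.29-fold lower in LW against the lowest signal called well above background on each array. VMO1, a secreted protein first known from the egg membrane, stood at 7.20, 7.45 and 7.69 in LW and 8.89, 9.82 and 10.20 in CR pigs (difference -2.24 ± 0.36, adjusted p = 0.000423). The breeds overlapped for none of NPSR1, C1GALT1 and VMO1.

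SLC22A16, a carnitine transporter, had the smallest adjusted p of the named genes lower in LW, and all 3 of its probes were called. Its values were 6.02, 6.76 and 7.28 in LW and 8.01, 8.36 and 9.35 in CR pigs, without overlap, and the difference was -1.85 ± 0.22 (adjusted p = 8.45e-06). PHF2, a histone demethylase, read 8.98, 9.12 and 9.28 in LW against 10.49, 10.80 and 11.15 in CR pigs (difference -1.67 ± 0.24, adjusted p = 0.000101), and YBX2, an RNA-binding protein of germ cells, 7.34, 7.56 and 8.09 against 8.95, 9.32 and 9.64 (difference -1.64 ± 0.21, adjusted p = 2e-05). Both had narrow spreads and no overlap. SFRP2, a secreted modulator of Wnt signals, differed by -1.80 ± 0.43, PON1, a lactonase carried on lipoproteins, by -1.70 ± 0.44 and the ciliary protein TMEM237 by -1.66 ± 0.37, with 1 or more pigs of the breeds overlapping in each. For TMEM237 the LW pigs lay between 8.87 and 9.13 and 1 CR pig, at 9.02, lay among them. AOAH, which inactivates bacterial endotoxin, differed by -2.10 ± 0.58 (adjusted p = 0.0371) with 1 LW pig at 11.44, inside the CR range. NNAT, a small membrane proteolipid of endocrine cells, differed by -2.04 ± 0.58 (adjusted p = 0.0442) on 2 of its 3 probes, with 0.01 on the remaining probe. Both calls lay near the threshold and were lost without any 1 of 9 pigs for AOAH and of 10 pigs for NNAT, although the breeds did not overlap for NNAT.

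Lipid synthesis and detoxification held the most genes lower in LW, 6 in each list. Of 37 tested genes of sterol and lipid synthesis 6 were called lower and 1 higher in LW, that is 18.9% beside 3.49% of all genes. The median of the whole list was 0.013 beside 0.00022 for all genes. SCD, the desaturase that makes monounsaturated fat, read 11.81, 12.22 and 12.73 in LW and 13.12, 13.64 and 14.73 in CR pigs without overlap. Its difference was -1.56 ± 0.37 or 2.95-fold (adjusted p = 0.0141), and all 11 SCD probes were called, between -1.56 and -0.92. ELOVL6, which lengthens palmitate, stood at 8.30, 9.34 and 9.58 in LW and 9.96, 10.47 and 10.76 in CR pigs (difference -1.23 ± 0.22, adjusted p = 0.000943), also without overlap. FASN, the fatty acid synthase itself, differed by -0.74 ± 0.15 (adjusted p = 0.00358) with 13.75, 14.21 and 14.71 against 14.74, 14.99 and 15.26, although only 1 of its 4 probes, the brightest, was called. ME1, the malic enzyme that supplies NADPH for the same synthesis, differed by -1.17 ± 0.32 (adjusted p = 0.0322). LPIN1, a phosphatidate phosphatase, differed by -0.72 and ACSS2, which activates acetate, by -0.30. The member higher in LW was INSIG2, a brake on sterol synthesis, at 0.62. Of the 37 genes 4 were called without slide 5, and 4 without CR replicate 1.

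Markers of fat cells lay on the same side. All 16 tested adipocyte markers were lower in LW, with a median of -0.399, and 4 of them were called, or 25%. An unadjusted p under 0.05 (limma) was reached by 8 of the 16. CIDEA, a protein of lipid droplets, differed by -1.33 ± 0.30 (adjusted p = 0.00947) with 7.43, 8.24 and 8.76 in LW and 8.68, 9.52 and 10.08 in CR pigs. PLIN1, the coat protein of the droplet, differed by -1.15 ± 0.26 (adjusted p = 0.00947) on the brightest of 3 called probes. GPD1, which supplies glycerol phosphate, differed by -0.77 ± 0.19 and PNPLA2, the first lipase of fat breakdown, by -0.31 ± 0.08, with adjusted p values of 0.0194 and 0.023. The values of CIDEA, PLIN1, GPD1 and PNPLA2 overlapped between the breeds in at least 1 pig. ADIPOQ, the adipocyte hormone adiponectin, was at -1.09 and FABP4, a fatty acid carrier, at -0.32, neither called by its brightest probe. The mean over the 16 markers ran from 9.82 to 10.35 in LW and from 10.24 to 11.00 in CR pigs, and 15 of the 16 were well above background on all 12 arrays. The part of fat cells in the differences of SCD, ELOVL6, FASN and ME1 was not tested. The adipocyte median at 30 °C was -0.431. Without LW replicate 2 only 2 of the 16 markers were called, and with the 12 arrays alone 6.

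Detoxification enzymes held the largest number of called genes, 6 lower and 2 higher in LW of 38 tested (21.1%), with a list median of -0.07. EPHX2, the soluble epoxide hydrolase that degrades epoxy fatty acids, read 13.86, 14.16 and 14.80 in LW and 15.20, 15.49 and 15.54 in CR pigs without overlap (difference -1.22 ± 0.21, adjusted p = 0.000748). Its other 2 probes stood at -0.09 and 0.02 and were not called. FMO1, a flavin monooxygenase, was called on all 3 probes, with 9.78, 10.40 and 11.10 in LW against 10.76, 11.51 and 12.31 in CR pigs (difference -1.04 ± 0.20, adjusted p = 0.0018). The aldo-keto reductases AKR1C4 and AKR1C1, which act on steroids, differed by -1.03 ± 0.27 and -0.98 ± 0.22. They belong to a family of close copies, and cross-reading among the copies was not tested. UGT1A6, which conjugates phenols to glucuronic acid, stood at -0.89 and the microsomal glutathione transferase MGST2 at -0.81. The members higher in LW were CYP1A2 at 0.76 and the acetyltransferase NAT1 at 0.30.

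Genes of the unfolded protein response leaned lower in LW almost without exception. Of 25 tested genes 24 were lower, with a median of -0.302, and 4 of them, 16%, were called. An unadjusted p under 0.05 (limma) was reached by 13 of the 25. HERPUD1, which helps to clear misfolded proteins, read 14.52, 14.90 and 14.97 in LW and 15.00, 15.21 and 15.49 in CR pigs (difference -0.38 ± 0.10, adjusted p = 0.034) with no overlap. CALR, the calcium-binding chaperone calreticulin, stood at 17.10, 17.22 and 17.45 against 17.41, 17.55 and 17.88 (difference -0.36 ± 0.10) and P4HB, the main disulphide isomerase, at 17.03, 17.11 and 17.38 against 17.30, 17.39 and 17.63 (difference -0.27 ± 0.08), with adjusted p values of 0.0394 and 0.0392. ATF6, a stress sensor, was called on 1 of 3 probes, the brightest, at -0.42 ± 0.12 (adjusted p = 0.0492). Its other probes went the opposite way, up to 0.215, and the mean over its 3 probes was -0.06. The largest difference of the 4 called genes was 1.34-fold, while the lowest difference in the list, of a gene not called, was -0.761. The mean over the list ran from 12.78 to 13.04 in LW and from 13.08 to 13.46 in CR pigs, so no LW pig reached the lowest CR pig. These 4 calls lay close to the threshold. With the position of the array on its slide as a term 0 of the 25 genes were called, without CR replicate 2 also 0, and with arrays weighted by their quality 9. At 30 °C the median was -0.257.

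The heat shock chaperones had 1 called gene in each direction of 38, TRAP1, a mitochondrial chaperone, at -0.83 ± 0.22 and the co-chaperone DNAJA4 at 0.42 ± 0.12, with a list median of 0.013. Antioxidant enzymes had 0 called of 28 (6 at an unadjusted p under 0.05, limma), with PRDX6, a peroxiredoxin, next to the threshold at 0.46 ± 0.13 (adjusted p = 0.0501). Selenoproteins had 0 of 25 called by the brightest probe and 4 at an unadjusted p under 0.05. Cytosolic ribosomal proteins had 0 of 72 and mitochondrially encoded genes 0 of 13, with 2 and 1 at an unadjusted p under 0.05. Among 71 nuclear genes of oxidative phosphorylation 1 was higher, NDUFC1 of complex I at 0.27 ± 0.07, and 1 lower, ATP5G3, which encodes the c subunit of ATP synthase, at -0.43 ± 0.08.

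Interferon-stimulated genes leaned higher in LW. Of 37 tested genes 36 had a positive difference, with a median of 0.296, but only XAF1, described above, and IFIT2 were called (5.41%). IFIT2, which binds foreign RNA, read 9.70, 10.13 and 10.23 in LW and 8.63, 9.28 and 9.61 in CR pigs without overlap, and its 3 probes were all called (difference 0.82 ± 0.19, adjusted p = 0.00993). The list mean ran from 9.74 to 10.13 in LW and from 9.35 to 9.75 in CR pigs. Fitted on the 12 arrays alone, 9 of the 37 genes were called, and without slide 5 only 1. In the other 12 pigs at 30 °C the median of the list was -0.083, and the difference between the temperatures was not tested for the list.

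Markers of T and NK cells leaned the same way. Of 14 tested markers 11 were positive with a median of 0.421, and 2 were called, with 8 at an unadjusted p under 0.05 (limma). CD2, an adhesion receptor of T cells, stood at 6.81, 6.97 and 7.31 in LW and 6.08, 6.26 and 6.73 in CR pigs without overlap (difference 0.64 ± 0.14, adjusted p = 0.0075). CD3D, a chain of the T cell receptor complex, stood at 7.98, 8.55 and 8.77 against 7.19, 7.72 and 8.14 (difference 0.80 ± 0.19, adjusted p = 0.0128). CD8A, the co-receptor of cytotoxic T cells, differed by 0.69 ± 0.22 and was not called (adjusted p = 0.0697). The mean over the 14 markers ran from 8.39 to 8.85 in LW and from 8.07 to 8.81 in CR pigs, and 13 of the 14 were well above background on all 12 arrays. Its part in the interferon-stimulated genes was not tested. At 30 °C the median was -0.052, with CD2 at -0.08 and CD3D at -0.19. The difference between the temperatures had unadjusted p values of 0.001 for CD2 and 0.000737 for CD3D, and neither passed adjustment over all probes.

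The other immune lists were quieter. All 12 genes of MHC class II had a positive difference with a median of 0.189 and 0 were called by limma (2 at an unadjusted p under 0.05), the one with the smallest p being SLA-DQB1 at 0.49 ± 0.17 (adjusted p = 0.11). The MHC class II median at 30 °C was -0.053, and the difference between the temperatures was not tested for the list. Of 20 genes of MHC class I and antigen processing SLA-8 was higher at 0.50 ± 0.14 and CALR lower, and here too near-identical copies make the gene uncertain. Among 64 chemokines, interleukins and receptors IL15, a growth factor of NK and memory T cells, was called on all 3 probes, with 9.27, 9.72 and 9.97 in LW against 8.63, 8.86 and 9.12 in CR pigs and no overlap (difference 0.78 ± 0.17, adjusted p = 0.00781). CXCR2, a neutrophil chemokine receptor, was higher at 0.59 ± 0.16 and TGFB2, a growth factor that restrains epithelial division, was lower at -0.41 ± 0.11. Complement had 2 of 29 genes called, both inhibitors and both higher in LW. SERPING1, which blocks the first complement protease, was called on all 4 probes at 0.41 to 0.67, and CLU, clusterin, read 14.47, 14.69 and 14.85 against 13.72, 14.11 and 14.45 (difference 0.57 ± 0.14, adjusted p = 0.0154). B and plasma cells had 0 of 9 markers called, myeloid cells 0 of 17 and thymocytes 0 of 9, with 1, 2 and 3 at an unadjusted p under 0.05 (limma).

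Antimicrobial proteins went both ways, with 1 of 20 genes higher and 2 lower in LW. Beside DEFB1, SLPI, a protease inhibitor of mucosal surfaces, was lower on all 7 probes at -1.41 to -1.25, its brightest reading 11.03, 12.04 and 12.70 in LW and 12.53, 13.23 and 14.62 in CR pigs (adjusted p = 0.0083). BPI, which permeabilizes Gram-negative bacteria, read 5.70, 6.85 and 8.36 in LW and 7.91, 9.37 and 10.47 in CR pigs at 24 °C (difference -2.30 ± 0.54, adjusted p = 0.0129), with both probes called and 2 LW pigs inside the CR range. At 30 °C the mean was 6.77 in LW and 6.47 in CR pigs, a difference of 0.31. PBD-2, another porcine beta-defensin, looked up after its values were seen, differed by 0.11 ± 0.32 and was well above background on 6 LW and 4 CR arrays.

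Coat colour separates these breeds, and of 17 tested pigmentation and melanocyte genes KIT was higher and SLC45A2 lower. SLC45A2, a transporter of the pigment organelle, stood at 6.60, 6.73 and 7.30 in LW and 6.84, 7.73 and 7.99 in CR pigs (difference -0.79 ± 0.20, adjusted p = 0.0226) on the brighter of 2 called probes. DCT, an enzyme of melanin synthesis, differed by 0.41 ± 0.20 and was not called (adjusted p = 0.292). The list mean overlapped, at 8.56 to 8.74 in LW and 8.53 to 8.69 in CR pigs and the list median was -0.052.

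IGF2, an insulin-like growth factor known for its part in the muscle growth of pigs, missed the threshold on its brightest probe and passed it on the other 7. The brightest probe read 13.17, 13.76 and 14.89 in LW and 12.49, 13.04 and 13.20 in CR pigs (difference 0.89 ± 0.26, adjusted p = 0.0552), with the lowest LW pig just below the highest CR pig. The 7 dimmer probes gave 0.86 to 1.05 with adjusted p values between 0.019 and 0.0458, and the breeds overlapped on none of them. Probes 6 and 7 are shown with their 38 shared bases in capitals, and probe 4 as a separate stretch, because probes of unlike sequence gave differences of like size. Probe 5 has the same 60 letters as probe 4.
IGF2 probe 4: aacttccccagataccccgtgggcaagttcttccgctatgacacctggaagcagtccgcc
IGF2 probe 6: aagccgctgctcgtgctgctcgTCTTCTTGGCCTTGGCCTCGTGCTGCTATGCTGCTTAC
IGF2 probe 7: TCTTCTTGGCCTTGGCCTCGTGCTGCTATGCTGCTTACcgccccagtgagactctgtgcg
Probes 6 and 7 differed by 0.86 each, probe 4 by 1.05 and probe 5 by 0.99. Of the 25 tested genes of the IGF and growth hormone axis 0 were called by the brightest probe (limma), 4 had an unadjusted p under 0.05, and the median was 0.105. IGF1 stood at 0.04, the growth hormone receptor GHR at 0.11 and the IGF2 receptor IGF2R at -0.16.

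Cell cycle genes leaned lower in LW, with 46 of 58 negative, a median of -0.188 and 3 called (5.17%). Of the 58 genes 26 had an unadjusted p under 0.05 (limma). CDCA3, which helps entry into mitosis, differed by -1.03 ± 0.27, the replication helicase loader CDC45 by -0.46 ± 0.08 and the cyclin-dependent kinase inhibitor CDKN2C by -0.51 ± 0.12, with adjusted p values of 0.0276, 0.00119 and 0.0146. The median at 30 °C was 0.017. With slide as a term 10 of the 58 were called, and without LW replicate 3 only 1. Immediate early and glucocorticoid-responsive genes had 3 of 29 higher and 0 lower in LW. The transcription factor JUN differed by 0.98 ± 0.28, the phosphatase DUSP1 by 0.84 ± 0.22 and KLF9, a target of glucocorticoid and thyroid hormone, by 0.54 ± 0.15. Their adjusted p values were 0.041, 0.0283 and 0.0419, the pigs overlapped in each, and without CR replicate 3 none of the 29 genes was called.

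Among the remaining cell types, 1 of 17 endothelial markers was called, the VEGF receptor KDR at 0.70 ± 0.14, on 1 of 3 probes while the others stood at -0.08 and -0.02. Skeletal muscle had 2 of 22 markers lower in LW, ACTN2 at -0.67 ± 0.19 and TCAP at -0.48 ± 0.12, and its mean ran from 7.82 to 8.04 in LW and from 7.94 to 8.62 in CR pigs. Fibroblasts had 0 of 25, smooth muscle 0 of 13, erythroid cells 0 of 10, nerve 0 of 14, thymic epithelium 0 of 6, parathyroid 0 of 4 and the circadian clock 0 of 17 called. At an unadjusted p under 0.05 (limma) these lists had 0, 3, 2, 0, 1, 1 and 2 genes. Leaving out 1 pig took the called genes of chemokines to 1 (CR replicate 1), and those of heat shock chaperones (CR replicate 1) and of MHC class I (CR replicate 2) to 0. In all 37 lists 52 of 886 genes were called, or 5.87%.

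**Figure D3:**
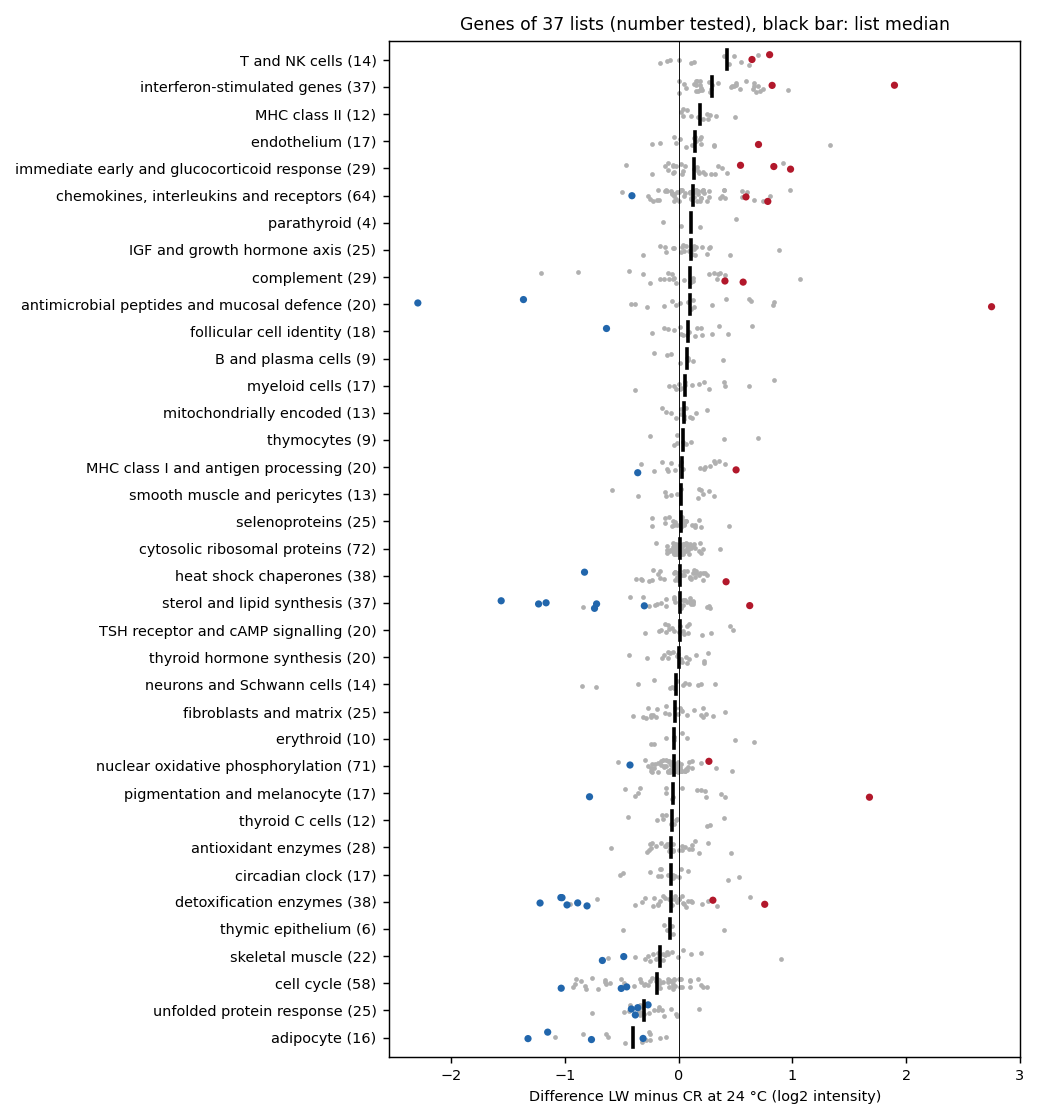
Each row is a gene list with the number of tested genes, each point a gene at its LW minus CR difference at 24 °C (x axis, log2 intensity), red where called higher and blue where called lower in LW, and the black bar is the list median. Medians run from -0.399 for adipocyte markers to 0.421 for T and NK cell markers, and the thyroid hormone synthesis row has no coloured point.

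Many genes are read by more than 1 probe, although some of these probes share all or part of their sequence, as in OAZ3 and KIT, and are not independent readings. Of the 224 called genes with more than 1 probe, 176 had the same sign on all probes and 70 were called on all of them. In 113 no other probe was called, and 2 had a probe called in the opposite direction. The same shares over all genes with more than 1 probe were not computed. Another 174 called genes have 1 probe only, so no second probe of the gene could be compared. Among them are DEFB1, HLA-E, CAPSL, CCDC17, SGK223, C1GALT1, VMO1, PHF2, YBX2, SFRP2, PON1, TMEM237 and AOAH. A total of 28 genes with 3 or more probes were called on every one of them, among them OAZ3, KIT, CLDN12, EPHA4, SDS, SCD, SLPI and SLC22A16.

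The probes of SELENOF, a selenoprotein that assists folding in the endoplasmic reticulum, disagreed widely. Its 5 brighter probes differed by 0.00 to 0.27 and were not called. The dimmest, probe 6, read 6.17, 6.29 and 7.46 in LW against 10.37, 11.14 and 11.57 in CR pigs, a difference of -4.46 ± 0.75 (adjusted p = 0.00071), the largest among the called probes named here. Probe 6 is shown with probe 4 because 30 of their 60 bases align, in capitals, with 2 mismatches between them, while the other 30 do not match.
SELENOF probe 6: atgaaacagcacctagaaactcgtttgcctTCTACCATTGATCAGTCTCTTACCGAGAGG
SELENOF probe 4: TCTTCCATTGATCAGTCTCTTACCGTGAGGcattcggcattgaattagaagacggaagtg
With positions counted from 1 at the 5′ end of probe 6 and the base of probe 4 last, the mismatches are A34T and A56T. Probe 4 read 13.34, 13.52 and 13.57 in LW and 13.08, 13.21 and 13.36 in CR pigs, so the probe with the shared stretch leaned the other way and was not called. At 30 °C probe 6 differed by -4.12, and the F1 pigs at 24 °C had a mean of 8.81, between the breeds. What probe 6 binds was not tested.

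DPM1, a subunit of the enzyme that makes dolichol-linked mannose, was looked at after its values were seen because its probes split by sequence. Probes 1 and 2 differed by -1.31 and -1.53 and were called, and probes 3 to 5 differed by -0.08 to 0.00 and were not. Probes 1 and 2 overlap in 26 bases, in capitals, and probe 4 is another stretch.
DPM1 probe 1: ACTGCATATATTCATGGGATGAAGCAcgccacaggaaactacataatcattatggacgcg
DPM1 probe 2: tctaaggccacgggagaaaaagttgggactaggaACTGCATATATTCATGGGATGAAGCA
DPM1 probe 4: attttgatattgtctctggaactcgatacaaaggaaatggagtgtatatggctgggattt
On probe 1 the LW pigs lay at 10.62, 10.72 and 10.84 and the CR pigs at 10.67, 12.29 and 12.45, with 1 CR pig at the LW level. The connective tissue proteoglycan LUM, chosen in the same way, had 11 probes. Of these, 2 were called lower in LW at -1.64 and -1.58, another stood at -0.83 (adjusted p = 0.086), and the other 8 lay at 0.03 to 0.38. The 3 low probes share 55 to 60 bases with each other, with up to 3 mismatches, and probe 4, at 0.08, shares 35 to 40 bases with each of them. Probes of DPM1 and of LUM thus gave unequal readings of the same named gene, and what sets these probes apart was not tested.

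**Figure D4:**
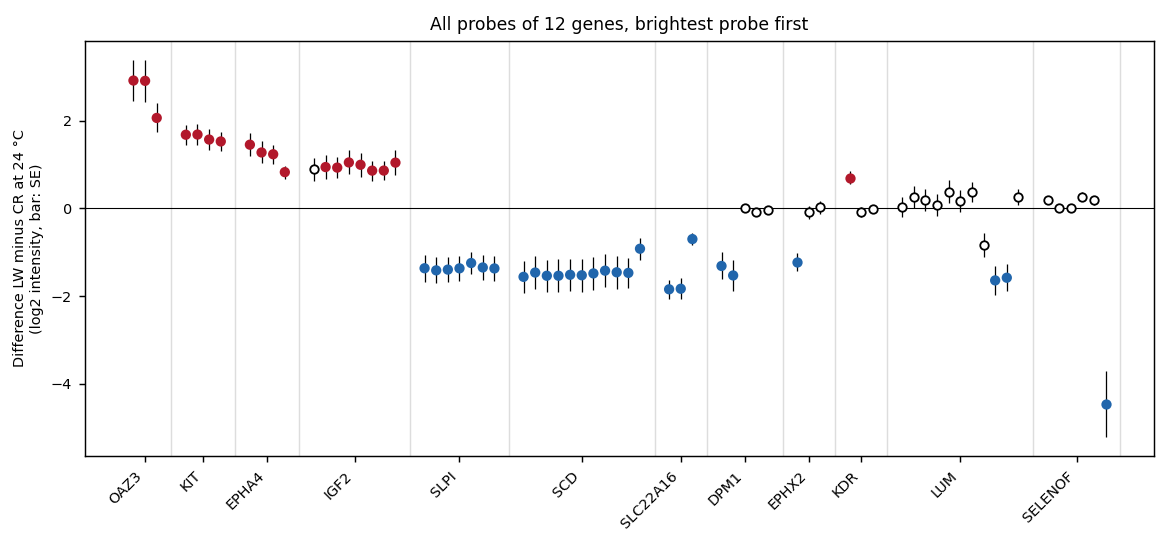
The LW minus CR difference at 24 °C (y axis, log2 intensity, bars are the standard error of the fit) is drawn for every probe of 12 genes, brightest first within a gene, filled where called and open where not. OAZ3, KIT, EPHA4, IGF2, SLPI, SCD and SLC22A16 keep 1 sign over all probes, while DPM1, EPHX2, KDR, LUM and SELENOF hold probes that differ and probes near 0.

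The same breeds were also compared in the 12 other pigs, at 30 °C, where 1702 probes (3.69%) were called. By the design of the study these pigs are littermates of those at 24 °C, so both comparisons share the same families. Of the 1580 probes called at 24 °C, 1534 (97.1%) had the same sign at 30 °C, against 70.2% of all probes, and 699 were called at both temperatures, each in the same direction. The median difference of the higher probes went from 0.496 at 24 °C to 0.389 at 30 °C, and that of the lower probes from -0.547 to -0.385 (the probes were picked at 24 °C). Whether the breed difference itself changed with temperature was tested as an interaction, and 0 probes passed (limma, smallest adjusted p 1.0), with 1447 at an unadjusted p under 0.05, among them 186 of the 1580.

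KIT differed by 1.68 at 24 °C and 1.96 at 30 °C, DEFB1 by 2.75 and 2.92, VMO1 by -2.24 and -1.76 and YBX2 by -1.64 and -1.53. OAZ3 went from 2.91 to 2.03, where 1 LW pig at 30 °C lay at the CR level. BPI stood at -2.30 and 0.31, with an unadjusted interaction p of 0.00174 from limma. The same p is given in parentheses for the next genes. SLC22A16 was -1.85 at 24 °C and -0.96 at 30 °C (0.00757), EPHA4 1.45 and 0.55 (0.0233), and CDCA3 -1.03 and -0.03 (0.0137). The values of CD2 and CD3D, which had the smaller interaction p values, are given above. None of these genes passed the adjustment.

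**Figure D5:**
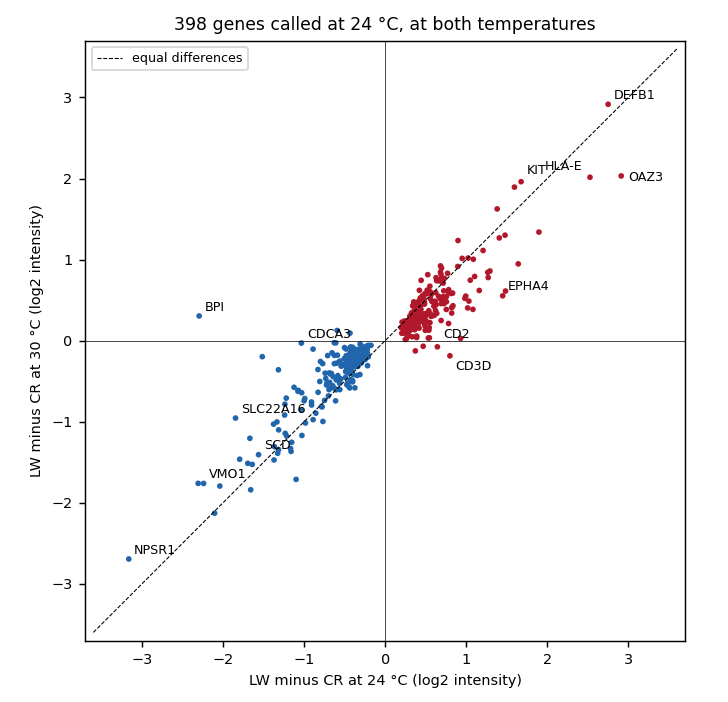
Each of the 398 genes called at 24 °C is plotted at its LW minus CR difference at 24 °C (x axis) and at 30 °C (y axis, both log2 intensity), red where higher and blue where lower in LW at 24 °C. Most points lie near or inside the dashed line of equal differences, and BPI, at -2.30 and 0.31, lies above 0.

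The F1 pigs at 24 °C gave a further reading of the same probes. Their mean lay between the LW and the CR mean for 1404 of the 1580 called probes. These probes were picked for the distance between those means, which by itself favours a place between them, and the share over all probes was not computed. On a scale from 0 at the CR mean to 1 at the LW mean the median position was 0.578, and 613 probes lay under 0.5. For KIT the F1 mean was 12.37, between 11.60 in CR and 13.28 in LW pigs. For DEFB1 it was 7.67, at the CR mean of 7.67 and far from 10.42 in LW pigs, and for C1GALT1 it was 5.17, at the LW mean of 5.09 and not the CR mean of 7.40.

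Some large differences between the breeds were not called, and in these genes pigs of 1 breed lay far apart. LECT1, a cartilage protein that restrains vessels, read 5.19, 13.08 and 14.32 in LW and 5.20, 5.25 and 13.27 in CR pigs, so it was near background in some pigs and bright in others of the same breed. It was well above background on 5 of 6 LW and 1 of 6 CR arrays, and its difference was 5.00 ± 1.94 (adjusted p = 0.161, exact permutation p = 0.0411, 2-sided, where 0.00216 is the smallest possible). ASPG, an asparaginase, read 6.55, 8.79 and 12.03 in LW and 6.87, 7.03 and 7.20 in CR pigs, the CR pigs close together and the LW pigs spread over more than 5 log2 units (difference 2.08 ± 1.06, adjusted p = 0.319). TMEM176B, a membrane protein of immune cells, read 6.48, 6.99 and 7.27 in LW and 7.26, 11.68 and 11.77 in CR pigs (difference -3.30 ± 0.99, adjusted p = 0.0557). Of the CR pigs 2 lay at the LW level, at 7.26 and 7.29.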

How the data were processed

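Thyroid RNA of each pig was labelled with 1 dye and hybridized to a porcine Agilent array of 60-base probes. Spots were read with Agilent Feature Extraction 10.10.1.1, per the submitters' processing notes. The authors deposited log2 values of the quantile-normalized median intensity for 46097 probes and 36 arrays, and these were tested as deposited. The deposited scanner intensities, remade by the same steps, lay within 0.00556 of the deposited log2 values at the median, and served for background calls and alternatives.

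Breed was tested with limma 3.58.1 in R 4.3.3 on 6 group means over 36 arrays, which share 1 estimate of the spread, with Benjamini-Hochberg adjustment over all probes. The p-values measure the spread among pigs that share families and pens, and the fit treats those pigs as independent. Missing values (17 in the 12 arrays) touched 0 called probes. Gene names came from the array design, updated through RefSeq accessions, gene numbers and older symbols, and HLA-E, AKR1C4, LECT1, PAX8, PBD-2 and SGK223 kept the design's name. A gene was read by its brightest probe.

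Named genes were the 12 called genes with the largest difference in each direction, up to 4 called members of each list (the one with the smallest p where none was called), a fixed set of thyroid and breed genes, and the 6 genes with 3 or more probes, all called, with the largest mean difference. C1D, LUM, DPM1 and PBD-2, and list members beyond 4 a list, were added after their values were seen. The lists and comparisons were chosen with earlier results of these data known. The fit was tested on simulated data. Alternatives were 13 other settings and leaving out each of the 12 pigs. Pig ages, litters and slaughter days were not used here.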

Additional observations from a re-analysis of the deposited data

Results flagged for a closer look

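Over the 202 sets of 6 values checked (101 named genes in 2 breeds), 17 held a pig far from the other 5 of its breed, and chance alone gives about 1 in 20. Among the LW pigs at 24 °C, the highest AOAH value was 11.44 with the next at 9.67, the highest DNAJA4 value 11.40 with the next at 11.15, the highest ME1 value 8.81 with the next at 7.80, and the highest SLC45A2 value 7.30 with the next at 6.75. On the low side of the LW pigs stood ELOVL6 at 8.30 with the next at 9.23, HERPUD1 at 14.52 with the next at 14.81, NPSR1 at 5.34 with the next at 6.06, SERPING1 at 15.62 with the next at 15.91, and SGK223 at 7.91 with the next at 8.97.

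Among the CR pigs the highest value was 8.35 for CD8A with the next at 7.34, 10.14 for CLDN12 with the next at 8.77, 13.27 for LECT1 with the next at 5.47, 14.26 for PDIA4 with the next at 13.88, and 11.69 for TGFB2 with the next at 11.33. The lowest CR value was 7.14 for DEFB1 with the next at 7.69, 10.67 for DPM1 with the next at 12.17, and 6.68 for NPSR1 with the next at 9.28. For CLDN12, DPM1 and LECT1 the single CR pig lay within the range of the LW pigs. For ELOVL6, HERPUD1 and DEFB1 the distant pig lay on the far side from the other breed.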

How the results depend on the processing

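Of the 67 named genes that were called, 40 stayed called without each pig in turn and 33 also under every other setting tried. With slide as a fixed block the called probes rose to 2353, of which 1429 were among the 1580, the called probes higher in LW to 1185 and the called genes to 601. Slide as a random block gave 2007 called probes, array weights 2290, position as a fixed block 1210 and leaving out slide 5 1248. Leaving out 1 pig gave 884 to 1491 called probes, 435 to 742 higher, 449 to 778 lower and 217 to 381 called genes, the lowest without LW replicate 3. Without CR replicate 1 the higher probes were 521 and without CR replicate 2 the called genes were 256. Leaving out slide 5 lost the call of 20 named genes and the position block that of 17. Calls were also gained. TMEM176B was called with the 12 arrays alone, with the position block and with array weights. IGF2 was called with either slide block, the position block, array weights, without slide 5 and as the mean of all its probes. Array weights also called CD8A, PDIA4, PRDX6 and SLA-DQB1. Each of 8 or more pigs, left out in turn, ended the call of NNAT, ATF6, DNAJA4, AOAH, ME1, KLF9, CALR, P4HB, JUN, CXCR2 and ACTN2, and each of 4 to 7 that of CDCA3, TGFB2, TRAP1, DUSP1, AKR1C4, SLA-8, HERPUD1, HLA-E, CAPSL, PON1, SLC45A2 and PNPLA2. SELENOF turned from 0.18 to -0.64 (adjusted p = 0.00124) as the mean of all its probes, which takes in probe 6. No paired analysis was possible because the replicate numbers follow the order of accession and pair no pigs. Near background, as for C1GALT1 in LW pigs, a value is a limit. The cause of the other changes was not tested.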
